A study of Mus musculus with 19 samples.

Results

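Migratory type 1 dendritic cells (DC1) of the skin-draining lymph nodes (SDLN: inguinal, cervical and brachial nodes) were compared between mice that lack the transcription factor gene Batf3 and wild-type (WT) mice. All mice were on the C57Bl/6j background and all carried Irf8VENUS, a fluorescent reporter of Irf8; the labels name the cells of every lymph node group Irf8VENUS+. The comparison used 5 of the 19 arrays of the series, chosen by their titles: 2 of WT Irf8VENUS+ and 3 of Batf3-/- Irf8VENUS+ migratory DC1. Another 6 arrays, 3 of each genotype, held resident DC1 of the same nodes and shared the fit. Cells were sorted without B220 and EpCAM, with CD11c, MHC class II and CD24 and without CD172 (SIRPα), and the migratory gate took cells high in MHC class II and intermediate in CD11c. The labels do not say how many mice stand behind an array or how old they were, so p-values cover the spread of these arrays alone, which may be technical in part.

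DC1 take up material from dying cells and present it to CD8 T cells, a process called cross-presentation. Their development depends on IRF8, and BATF3, an AP-1 family factor that binds DNA together with IRF8, keeps Irf8 expressed in DC1 precursors. Migratory DC1 carry antigen from the skin to the node under the chemokine receptor CCR7 and mature on the way, losing part of the uptake machinery of resident cells.

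The arrays measured all probe sets of a whole-transcript design, and the deposited values are log2 intensities, so that a difference of 1 is a doubling. A gene was tested where at least 2 of the 11 arrays reached a log2 intensity of 4.82, the table's median, which kept 11931 of 19938 named genes. A gene is called here when its adjusted p (limma, Benjamini-Hochberg over all genes tested) was under 0.05. Differences are Batf3-/- minus WT, with the standard error (SE) of the fit.

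Markers were read first as a check of the labels. Ccr7, the receptor that guides cells to the node, measured 11.31 and 12.07 in WT and 12.66, 12.33 and 12.08 in Batf3-/- cells, against 7.99 to 10.63 on the resident arrays. Fscn1, the actin bundling protein of mature dendritic cells, lay between 10.53 and 12.47 on the migratory arrays and between 6.00 and 9.65 on the resident ones. Cd40, Ccl22 and Socs2 also lay higher on every migratory array than on any resident array. Cd83 did not separate them, at 8.14 to 9.08 on the migratory and 8.39 to 8.71 on the resident arrays. The cDC1 markers Itgae, Wdfy4 and Naaa lay at 4.73 to 5.60, 7.06 to 8.37 and 5.47 to 7.73 on the migratory arrays. On the resident arrays they lay at 7.00 to 7.92, 10.75 to 11.82 and 10.88 to 12.09. The cDC2 lectins Clec10a and Mgl2 stayed at 3.40 to 4.34 on the 5 migratory arrays, Cd209a at 4.77 to 5.36, Itgam at 4.12 to 4.63, and Sirpa, the gene of the excluded CD172, at 5.35 to 6.15. Other genes listed for cDC2 lay higher on these arrays: Clec7a at 6.50 to 7.86, Il1b at 7.67 to 8.97, Ltb at 6.88 to 7.90 and Irf4 at 6.53 to 8.20. The cDC2 list was therefore not dim as a whole. Epcam, also gated out, lay between 3.61 and 4.43 and was not tested.

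The arrays differed in spread, and this has to be read beside every result. The SD of all probe set values was 1.96 and 2.03 on the WT migratory arrays, 2.16, 2.15 and 2.07 on the Batf3-/- migratory arrays and 2.16 to 2.23 on the resident arrays. The WT migratory arrays had the narrowest distributions, and Batf3-/- replicate 3 lay between them and the other Batf3-/- arrays. That array also had the lowest mean correlation with its group, 0.949, and the lowest limma array weight, 0.215.

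**Figure D1:**
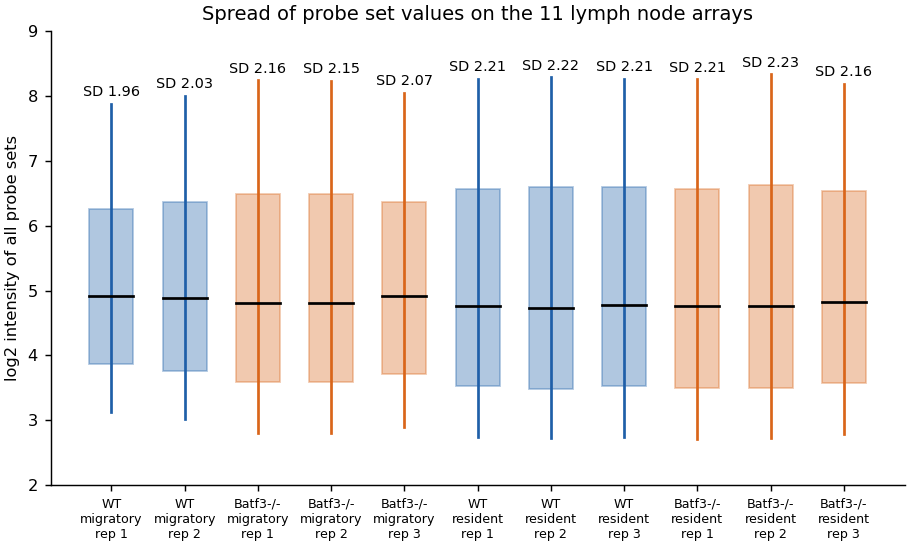
Distribution of the log2 intensities of all probe sets on each of the 11 lymph node arrays: the box spans the quartiles, the black line is the median, the vertical line spans the 10th to 90th percentile, and the SD is printed above. The 2 WT migratory arrays (blue, left) have SDs of 1.96 and 2.03, the smallest of the 11.

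With a narrower distribution in WT, the median difference moved with the level of a gene. With the tested genes in 10 equal groups by level, it was -0.04 in the dimmest, 0.32 in the ninth and 0.18 in the brightest group, while in resident DC1 the medians lay between -0.04 and 0.01. Quantile normalization of the 11 arrays brought the 10 medians to between -0.002 and 0.08, and cyclic loess to between -0.02 and 0.105. Scaling each array to a common median absolute deviation left the other groups between 0.01 and 0.10 but turned the brightest one to -0.31. Many genes below are therefore also given after these 3 normalizations or in a fit with the SD of the array as a term. Not every gene is, and a difference given without these values is not thereby shown to hold under them. That term widened the unscaled standard error of this contrast 1.76 times, since the spread moves with the genotype on these arrays, and the parts of both in a difference cannot be told apart.

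**Figure D2:**
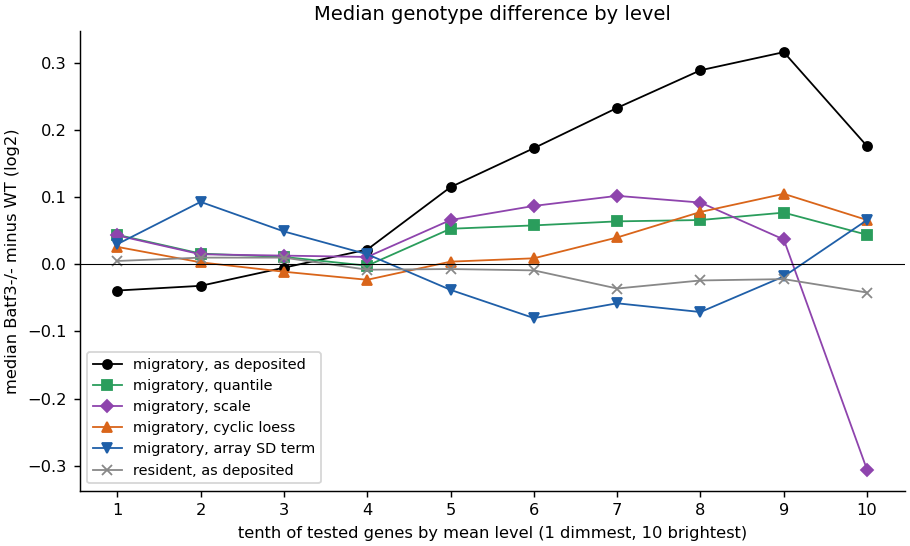
Median Batf3-/- minus WT difference (log2) in 10 equal groups of the 11931 tested genes, ordered by mean level on the migratory arrays, for the deposited values, 3 normalizations and the fit with the array SD as a term; grey crosses show resident DC1. The deposited values (black) climb from -0.04 in the dimmest group to 0.32 in the ninth, and after scaling the brightest group sits at -0.31.

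Of the 11931 genes tested, 1123 were called (9.41%): 851 higher in Batf3-/- (7.13%) and 272 lower (2.28%). The counts of called list members given below are to be read beside these shares. The groups did not overlap in 1118 of the called genes (99.6%), and over all genes tested 24.2% lay wholly higher and 12.4% wholly lower in Batf3-/-. The excess of higher over lower calls moved with the scaling: it was 712 to 439 after quantile normalization, 497 to 349 after cyclic loess and 669 to 661 after scaling, against 851 to 272 as deposited. Of the lower genes 243 of 272 (89.3%) were also called after all 3 normalizations (2.04% of all genes tested), and of the higher genes 425 of 851 (49.9%; 3.56% of all genes tested). The fit with the array SD term called 37 genes (6 higher, 31 lower). Those include 15 of the 1123, of which 14 also passed after the 3 normalizations (0.117% of all genes tested).

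Single arrays weighed heavily on the count. Leaving out WT replicate 1 gave 109 calls, Batf3-/- replicate 1 gave 224, Batf3-/- replicate 2 gave 242 and Batf3-/- replicate 3 gave 3570, while leaving out WT replicate 2 gave 1301. Batf3-/- replicate 3 was the lowest of its group in 714 of the 851 higher genes (83.9%, against 45.5% of all genes tested) and the highest in 171 of the 272 lower genes (62.9%, against 37.8%), so on most called genes it lay nearest to WT. Calls with the same sign in each of the 5 fits without 1 migratory array numbered 37 higher (4.3% of the higher genes) and 33 lower (12.1% of the lower genes). Among the named falls these were Batf3, Gal, Ifi205, Bmp2, Il23r, Clec12a, Xcr1, Slamf6, Cxcl9, Fyb and Sdad1, and also Cadm1 and Gcsam. The other called falls given below were each lost without at least 1 of the 5 arrays.

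Batf3 itself checks the labels. Its log2 intensity was 9.15 and 9.23 in WT and 6.02, 5.87 and 6.17 in Batf3-/- cells. The Batf3-/- arrays were all low and close together. The difference of -3.17 (SE 0.20, adjusted p = 1.35e-05) was the largest fall among all called genes, and was -3.27 with the array SD term (adjusted p = 0.00443). A signal of about 6 remained above the filter level; the sources used here do not place the probes relative to the deleted part of the gene.

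Several genes that mark DC1 were lower in Batf3-/- cells. Of 38 tested genes of the cDC1 identity list, 10 were called lower and 3 higher, with a median of -0.35 against 0.10 over all genes tested, and the same 13 stayed called after the 3 normalizations. The lower genes were Batf3, Ifi205, Xcr1, Cxcl9, Tlr3, Cadm1, Ppt1, Gpr33, Gcsam and Clec9a, and the higher ones Ece1, Irf8 and Cd8a. Cadm1, Gpr33, Gcsam and Cd8a are given values here to complete that count, chosen after their values were seen.

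Xcr1, the receptor through which DC1 respond to the chemokine XCL1 from CD8 T and NK cells, measured 7.85 and 8.07 in WT and 6.06, 6.46 and 5.83 in Batf3-/- cells. The fall was 1.85 (difference -1.85, SE 0.24, adjusted p = 0.00259), and it was still called without each of the 5 migratory arrays. With the array SD term the size was nearly the same, -1.89, at an adjusted p of 0.0813. Clec9a, the receptor that binds actin exposed by dead cells, measured 6.95 and 7.68 in WT and 6.54, 6.38 and 6.26 in Batf3-/- cells. Its difference was -0.92 (SE 0.20, adjusted p = 0.021), and it was not called without WT replicate 2, the higher of the WT pair (adjusted p = 0.0886), nor without Batf3-/- replicate 1 or 2 (adjusted p = 0.0504 and 0.0653). On the resident arrays Clec9a lay at 10.06 to 10.47 and Xcr1 at 9.53 to 11.34, so both were dimmer in migratory cells of either genotype.

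Tlr3, the endosomal sensor of double-stranded RNA, measured 6.22 and 6.65 in WT and 5.04, 4.89 and 5.78 in Batf3-/- cells (difference -1.20, SE 0.25, adjusted p = 0.0165). Cadm1, an adhesion molecule of DC1, measured 8.48 and 8.40 against 7.15, 7.28 and 7.38, a tight separation (difference -1.17, SE 0.16, adjusted p = 0.00303). Ppt1, a lysosomal thioesterase, measured 8.20 and 8.97 against 7.75, 7.49 and 7.20 (difference -1.11, adjusted p = 0.0142). Ppt1 was among the few genes still called with the array SD term, at -1.73 (adjusted p = 0.0371), and was lost without WT replicate 2 (adjusted p = 0.0522). Gcsam fell by 1.05 (difference -1.05, adjusted p = 0.0114) and Gpr33, an orphan receptor, by 1.07 (difference -1.07, adjusted p = 0.0443). Of the 3 rises, Cd8a, the CD8α chain carried by resident DC1, measured 5.92 and 5.94 in WT and 7.32, 7.25 and 6.67 in Batf3-/- cells (difference 1.15, adjusted p = 0.0102), and was lost without WT replicate 1 (adjusted p = 0.0794). Ece1, an endothelin-converting protease, measured 6.66 and 6.94 against 9.12, 8.63 and 7.74 (difference 1.70, adjusted p = 0.0224). Both groups were apart in each gene, and the difference of Ece1 was 0.20 with the array SD term. Irf8 is described with the transcription factors. The remaining members include Wdfy4 and Naaa, at differences of -0.17 and -0.55 that did not pass the test (adjusted p = 0.77 and 0.448).

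**Figure D3:**
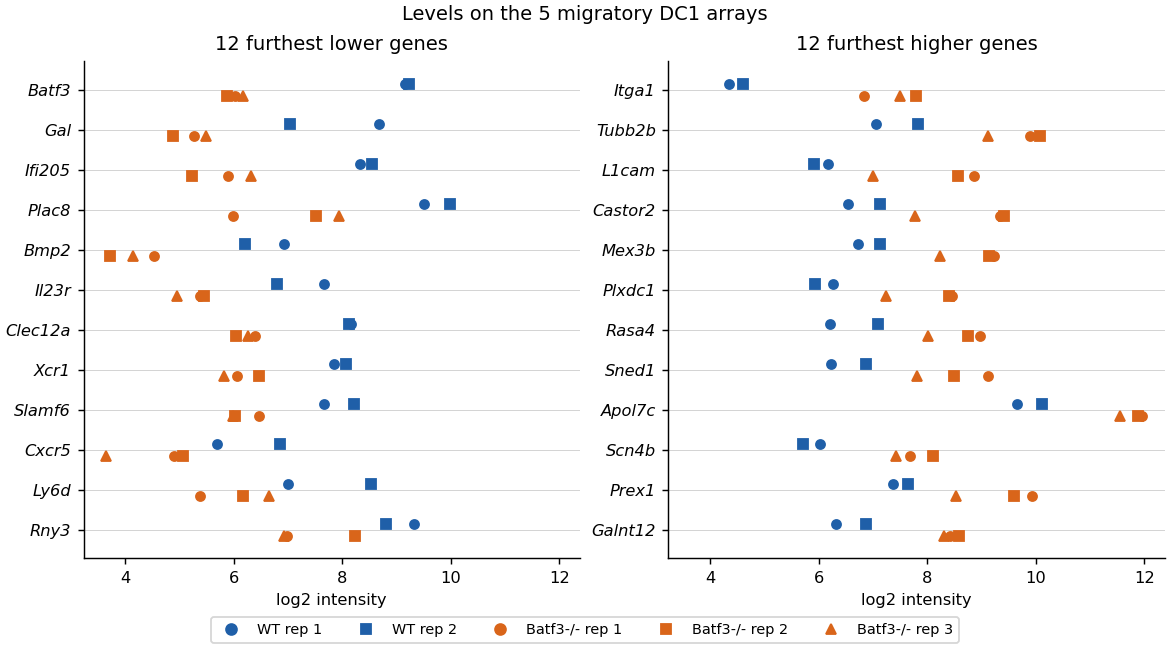
log2 intensity on the 5 migratory DC1 arrays of the 12 called genes furthest lower (left) and the 12 furthest higher (right) in Batf3-/-; each symbol is 1 array, blue for WT and orange for Batf3-/-. In the lower genes the orange triangles of Batf3-/- replicate 3 mix with the other Batf3-/- arrays, and in most higher genes (L1cam at 7.01, Castor2 at 7.78) they lie nearest to WT.

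Promoters in the RefSeq table (GRCm38.p6), the 250 bases before and 50 bases after a gene's start, were looked up for the genes called under every spread setting and for Ifi205, and 2 of those that fell are shown. They were searched for motifs because BATF3 is known to bind AP-1 sites (TGANTCA, searched on both strands) and IRF factors a GAAA repeat (GAAA, any 2 bases, GAAA, both strands). The Clec12a window lies at chr6:129349994-129350293 on the plus strand and holds 1 TGANTCA, in capitals, which starts 213 bases before the gene's start. The Ifi205 window lies at chr1:174031706-174032005 on the minus strand and holds the GAAA repeat on each strand, in capitals, 134 bases before the start and 23 bases after it. Ifi205 was chosen for display after its values were seen.
Clec12a: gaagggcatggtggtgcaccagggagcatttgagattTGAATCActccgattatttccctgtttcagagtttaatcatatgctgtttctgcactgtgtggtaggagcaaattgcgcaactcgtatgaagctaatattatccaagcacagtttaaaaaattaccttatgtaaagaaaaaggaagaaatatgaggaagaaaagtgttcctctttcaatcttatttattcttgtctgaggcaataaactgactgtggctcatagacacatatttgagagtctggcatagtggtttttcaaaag
Ifi205: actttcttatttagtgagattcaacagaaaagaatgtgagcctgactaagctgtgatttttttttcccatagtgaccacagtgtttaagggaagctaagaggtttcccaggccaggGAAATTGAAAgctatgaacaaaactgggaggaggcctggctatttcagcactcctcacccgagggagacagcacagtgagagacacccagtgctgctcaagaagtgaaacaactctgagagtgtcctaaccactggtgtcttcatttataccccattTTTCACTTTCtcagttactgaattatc

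Such matches are common: TGANTCA stood in 7.81% of all 32851 promoters of the table and in 5.27% of those of tested genes. It stood in 8.1% of the 247 promoters of genes called lower and in 4.32% of the 879 promoters of genes called higher. The GAAA repeat stood in 3.04% of the promoters of tested genes, 4.45% of those called lower and 3.19% of those called higher. Of the 13 genes looked up, 10 had a promoter in the table, 1 with TGANTCA and 2 with the GAAA repeat. A match is a description of these letters and no test of binding.

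Clec12a, an inhibitory lectin receptor that senses uric acid crystals from dead cells, measured 8.16 and 8.12 in WT and 6.39, 6.05 and 6.27 in Batf3-/- cells. Replicates lay closer together than in most genes. Its difference of -1.90 (SE 0.16, adjusted p = 0.000343) was kept with the array SD term (-1.86, adjusted p = 0.0127), after each normalization and without each migratory array. Clec12a was the only called member among 23 tested genes of the cDC2 identity list, whose median was -0.04.

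Ifi205, an interferon-inducible PYHIN protein abundant in DC1, measured 8.33 and 8.55 in WT and 5.89, 5.24 and 6.32 in Batf3-/- cells. The Batf3-/- arrays lay at least 2 units below WT, in spite of their own spread. The difference was -2.62 (SE 0.26, adjusted p = 0.000675), and -2.05 with the array SD term (adjusted p = 0.0612). Other members of the list of interferon-inducible GTPases and PYHIN genes moved the other way: the guanylate-binding proteins Gbp2b and Gbp3 were called higher, at 0.90 and 0.87 (adjusted p = 0.00833 and 0.0211). Gbp2b shares sequence with its neighbours, so its level may include theirs. The median of the 12 tested members was 0.21, and it was below 0 after each of the 3 normalizations (-0.08 after scaling).

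Several signalling molecules were lower in Batf3-/- cells and dim in resident cells. Gal, the neuropeptide galanin, measured 8.67 and 7.03 in WT and 5.27, 4.89 and 5.49 in Batf3-/- cells (difference -2.63, SE 0.35, adjusted p = 0.00272). The WT arrays lay far apart from each other but above all Batf3-/- arrays. Bmp2, a growth factor of the TGF-β family, measured 6.92 and 6.21 against 4.53, 3.72 and 4.15 (difference -2.43, SE 0.27, adjusted p = 0.00124). Il23r, a subunit of the IL-23 receptor, measured 7.66 and 6.79 against 5.38, 5.46 and 4.96 (difference -1.96, SE 0.24, adjusted p = 0.00186). All 3 were still called without each migratory array and after each normalization, while with the array SD term the differences were -1.52, -2.02 and -1.79 (adjusted p = 0.208, 0.0953 and 0.101).

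Chemokine genes split. Cxcl9, an interferon-γ inducible attractant of T cells, measured 10.05 and 9.66 in WT and 8.11, 8.59 and 8.62 in Batf3-/- cells (difference -1.42, SE 0.20, adjusted p = 0.00419). Ccl19, a ligand of CCR7, measured 9.39 and 8.65 against 7.29, 6.83 and 8.13 (difference -1.60, adjusted p = 0.0149). Ccl19 has near-identical gene copies that may share its signal, and its difference was -0.32 with the array SD term. Cx3cl1, the membrane-bound fractalkine, was the 1 called chemokine that rose, from 6.26 and 6.17 to 8.17, 7.88 and 7.15 (difference 1.52, adjusted p = 0.0116). The rise was 0.49 with the array SD term. Of 24 tested chemokines, 2 were called lower and 1 higher, beside 2.28% lower and 7.13% higher over all genes tested.

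The chemokine receptor list had 4 of 15 tested members lower and none higher: Xcr1, Cxcr5, Ackr3 and Gpr183. Gpr183, the oxysterol receptor EBI2 that positions cells within nodes and spleen, measured 9.39 and 9.06 in WT and 8.22, 8.37 and 8.33 in Batf3-/- cells (difference -0.92, SE 0.23, adjusted p = 0.032). Ackr3, a scavenging receptor of CXCL12, was lower by a difference of -0.92 (adjusted p = 0.040), with Batf3-/- replicate 3 at 4.97 beside WT replicate 1 at 5.05. The call for Ackr3 was not kept after cyclic loess (adjusted p = 0.0561).

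A further set of lower genes is known from lymphocytes, and markers of B cells moved with them. Slamf6, a homophilic receptor of the SLAM family, measured 7.67 and 8.22 in WT and 6.47, 6.02 and 5.99 in Batf3-/- cells (difference -1.79, SE 0.22, adjusted p = 0.00208; -2.04 with the array SD term, adjusted p = 0.0466). Cxcr5, the receptor for the B cell follicle chemokine CXCL13, measured 5.70 and 6.85 against 4.91, 5.07 and 3.65 (difference -1.73, SE 0.37, adjusted p = 0.0185; -3.27 with the array SD term, adjusted p = 0.00963). Cxcr5 was not called without WT replicate 2 (adjusted p = 0.0852). Ms4a1, which encodes CD20, measured 5.36 and 6.34 against 4.38, 4.80 and 4.46 (difference -1.30, adjusted p = 0.0151).

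Over all 11931 genes tested, 7106 had a positive difference. Of 15 tested B cell markers, 14 had a negative difference, with a median of -0.97 (-0.965 unrounded, and -1.64 with the array SD term), and 2 of them, Cxcr5 and Ms4a1, were called. Their summed log2 level ranged from 94.9 to 108.5 on the WT arrays and from 82.0 to 97.9 on the Batf3-/- arrays, so the ranges overlap. WT replicate 2 was the highest for most: Pax5 measured 7.41 there against 6.10 on WT replicate 1, and Fcmr 8.22 against 6.39. Ighm stayed at 4.79 to 5.36 on all 5 arrays. The part of B cell RNA in the falls of Slamf6, Cxcr5, Stap1, Plac8 and Ly6d was not tested, and in bulk samples fewer cells of a type and less RNA per cell cannot be told apart.

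Plac8, a small cysteine-rich protein, measured 9.50 and 9.98 in WT and 5.99, 7.52 and 7.95 in Batf3-/- cells (difference -2.59, SE 0.51, adjusted p = 0.0146). Its Batf3-/- arrays ranged over nearly 2 units, and the call was not kept without WT replicate 1 (adjusted p = 0.0797). Ly6d, a surface protein of lymphoid progenitors, measured 7.01 and 8.53 against 5.38, 6.17 and 6.65 (difference -1.70, adjusted p = 0.0252), and was not called without WT replicate 2 (adjusted p = 0.118) nor without Batf3-/- replicate 1 (adjusted p = 0.0888) or 2 (adjusted p = 0.0701). Stap1, a signalling adaptor of B cells, was lower by a difference of -0.88 (adjusted p = 0.0267) and -1.60 with the array SD term (adjusted p = 0.0282). Rny3, a small non-coding RNA of Ro ribonucleoproteins, measured 9.32 and 8.81 against 6.99, 8.23 and 6.92 (difference -1.69, adjusted p = 0.0253).

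Fyb, an adaptor that links immune receptors to integrins, measured 8.82 and 9.21 in WT and 7.95, 7.97 and 7.93 in Batf3-/- cells, with the Batf3-/- arrays nearly equal. Its difference was -1.07 (SE 0.16, adjusted p = 0.00708) and -1.29 with the array SD term (adjusted p = 0.0435). Fyb is also a T cell gene; among 16 tested T cell markers none was called by limma (1 had an unadjusted p under 0.05), and Cd3d measured 7.06 and 7.94 in WT and 6.05, 6.64 and 7.19 in Batf3-/- cells. The summed log2 level of T cell markers was 96.5 to 107.2 in WT and 93.3 to 103.6 in Batf3-/- cells, and their part in the fall of Fyb was not tested. Trim12a, a member of the TRIM family, was lower by a difference of -0.99 (adjusted p = 0.0181) and Sdad1, a ribosome assembly factor, by -0.99 (adjusted p = 0.011). Both remained called with the array SD term, at the larger sizes of -1.85 and -1.55 (adjusted p = 0.00963 and 0.0281). In both, Batf3-/- replicate 3 lay furthest from WT, at 4.23 and 3.76. The same held for Cxcr5, Stap1, Slamf6 and Ppt1, whose falls the term also widened. How far these wider falls rest on that 1 array was not tested.

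Irf8, the other factor on which DC1 depend, was higher. It measured 10.46 and 10.97 in WT and 12.37, 11.95 and 11.54 in Batf3-/- cells, and the groups did not overlap. On the resident arrays it lay at 12.37 to 12.72 in both genotypes, above both WT and 2 of the 3 Batf3-/- migratory arrays. The difference was 1.24 (SE 0.21, adjusted p = 0.00833), 0.64 after scaling (adjusted p = 0.0297) and 0.43 with the array SD term (adjusted p = 0.455), and it was not called without WT replicate 1 (0.98, adjusted p = 0.0881). Within each title code shared by 1 array of each genotype it was 1.91 and 0.98. The titles name the cells Irf8VENUS+ and the sort description does not say whether the reporter was gated on, so the cells may have been chosen by a readout of this gene.

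Of 34 tested DC transcription factors, 8 were called higher and 1, Batf3, lower, with a median of 0.46 that turned to -0.06 with the array SD term. Prdm1, the repressor BLIMP1, measured 4.53 and 4.33 in WT and 5.96, 5.86 and 4.96 in Batf3-/- cells (difference 1.16, adjusted p = 0.0173). Bcl6, a repressor that DC1 need for their development, measured 6.28 and 5.98 against 7.70, 7.61 and 6.60 (difference 1.17, adjusted p = 0.0434; 0.07 with the array SD term). For both genes Batf3-/- replicate 3 lay nearest to WT. Among 19 tested AP-1 family factors, Atf3 and Bach1 were called higher and Batf3 lower. Atf3, a stress-induced factor, rose from 7.88 and 8.00 to 9.63, 9.21 and 9.0 (difference 1.34, adjusted p = 0.0135). Bach1, which restrains haem and oxidative stress genes, had a difference of 0.81 (adjusted p = 0.0467). Its call was not kept after any of the 3 normalizations (adjusted p = 0.0683 to 0.112). The list median was -0.02.

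The largest rise among all called genes was that of an integrin. Itga1, the collagen-binding α1 subunit, measured 4.35 and 4.61 in WT, below the filter level, and 6.83, 7.80 and 7.50 in Batf3-/- cells. Unlike most rises, Batf3-/- replicate 3 was not the lowest of its group. The difference of 2.89 (SE 0.31, adjusted p = 0.00122) was 2.49 with the array SD term (adjusted p = 0.0846) and was called without each migratory array. Itga6, the laminin-binding α6 subunit, measured 4.73 and 4.84 against 6.05, 5.88 and 5.83 (difference 1.14, SE 0.15, adjusted p = 0.00262), and was 1.16 with the array SD term (adjusted p = 0.088). Itga4, of the VCAM-1 receptor, had a difference of 0.84 (adjusted p = 0.046), and Itgb8, which activates TGF-β, of -1.09 (adjusted p = 0.0408). Neither was called after cyclic loess (adjusted p = 0.0632 and 0.0599). In all, 4 of 21 tested integrin subunits were called higher and 1 lower.

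Adhesion and guidance molecules followed: 8 of 33 tested members were called higher and 1, Cadm1, lower, with a median of 0.49 that was -0.16 with the array SD term. L1cam, a neural and leukocyte adhesion molecule, measured 6.18 and 5.92 in WT and 8.86, 8.56 and 7.01 in Batf3-/- cells (difference 2.09, SE 0.43, adjusted p = 0.0167). Plxdc1, a plexin domain membrane protein, measured 6.27 and 5.94 against 8.46, 8.40 and 7.25 (difference 1.93, SE 0.31, adjusted p = 0.00757). In both genes Batf3-/- replicate 3 stood over 1 unit below the other Batf3-/- arrays. Sned1, an extracellular matrix protein, and Plxnd1, a semaphorin receptor, had differences of 1.93 and 1.53 (adjusted p = 0.00833 and 0.0113). Cldn1, a tight junction protein also listed for Langerhans cells, measured 7.97 and 7.86 against 9.49, 9.41 and 8.74 (difference 1.30, adjusted p = 0.00833). Of 4 tested Langerhans cell markers Cldn1 alone was called. The mean level of the 4 was 6.87 to 6.90 on the WT arrays and 7.25 to 7.31 on the Batf3-/- arrays. Cd207 lay at 3.93 to 4.65 and Epcam, which the sort excluded, at 3.61 to 4.43 on the 5 arrays. The part of Langerhans cells in these results was not tested. Perp, listed for keratinocytes, had a difference of 0.86 (adjusted p = 0.0168).

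Among cytoskeletal genes 14 of 34 tested members were called higher and none lower, and 5 of the 14 remained called after the 3 normalizations. Of the 34, 31 had a positive difference, beside 7106 of all 11931 genes tested. The median was 0.64 (from 0.635) against 0.10 over all genes, and it was 0.05 with the array SD term. In the ninth and the brightest of the 10 groups by level, the medians were 0.32 and 0.18. Tubb2b, a β-tubulin, measured 7.05 and 7.83 in WT and 9.89, 10.08 and 9.12 in Batf3-/- cells (difference 2.26, SE 0.35, adjusted p = 0.00715). Flna, the actin crosslinker filamin A, measured 6.75 and 7.19 against 9.17, 9.02 and 8.08 (difference 1.79, SE 0.30, adjusted p = 0.00855). With the array SD term these were 1.13 and 0.49 (adjusted p = 0.321 and 0.416). Fgd2, an exchange factor for Cdc42, and Myo1g, a membrane-linked myosin, had differences of 1.38 and 1.25 (adjusted p = 0.0179 and 0.011), which were 0.29 and 0.30 with the array SD term.

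Further genes were among the furthest rises. Mex3b, an RNA-binding ubiquitin ligase, measured 6.73 and 7.13 in WT and 9.24, 9.14 and 8.24 in Batf3-/- cells (difference 1.95, SE 0.27, adjusted p = 0.00419). Scn4b, a sodium channel β subunit, measured 6.03 and 5.71 against 7.69, 8.11 and 7.42 (difference 1.87, SE 0.27, adjusted p = 0.00549). Galnt12, an enzyme that starts mucin-type O-glycans, measured 6.33 and 6.88 against 8.42, 8.59 and 8.31 (difference 1.83, SE 0.20, adjusted p = 0.00124). These 3, with Itga1, Itga6, Plxdc1, Gbp2b and Grk3, were the named rises still called without each of the 5 migratory arrays.

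Castor2, of the arginine-sensing CASTOR family upstream of mTORC1, Rasa4, a Ras GTPase activator, and Prex1, a Rac exchange factor, had differences of 2.01, 1.93 and 1.85 (adjusted p = 0.0196, 0.00833 and 0.0147). With the array SD term they were 0.31, 0.58 and 0.38. Apol7c, an apolipoprotein L family member induced in maturing DC1, measured 9.65 and 10.12 in WT and 11.96, 11.88 and 11.56 in Batf3-/- cells (difference 1.92, SE 0.43, adjusted p = 0.0219).

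Of the named rises, 3 were also called with the array SD term and after all 3 normalizations. Grk3, a kinase that desensitises G protein-coupled receptors, measured 6.96 and 7.13 in WT and 8.96, 8.88 and 8.56 in Batf3-/- cells (difference 1.75, SE 0.17, adjusted p = 0.000675; 1.36 with the array SD term, adjusted p = 0.0316). Upb1, an enzyme of pyrimidine breakdown, measured 6.11 and 5.18 against 6.70, 6.67 and 7.40 (difference 1.28, adjusted p = 0.0165; 2.24 with the array SD term, adjusted p = 0.0209), and was not called without WT replicate 2 (adjusted p = 0.064). Oxct2a, a ketone body enzyme best known from testis, measured 4.29 and 3.89 against 4.75, 4.88 and 5.12, near the filter level (difference 0.83, adjusted p = 0.0147; 1.36 with the array SD term, adjusted p = 0.0282), and was likewise lost without WT replicate 2 (adjusted p = 0.0523). In Upb1 and Oxct2a, Batf3-/- replicate 3 lay furthest from WT, and its part in the wider rises with the term was not tested.

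**Figure D4:**
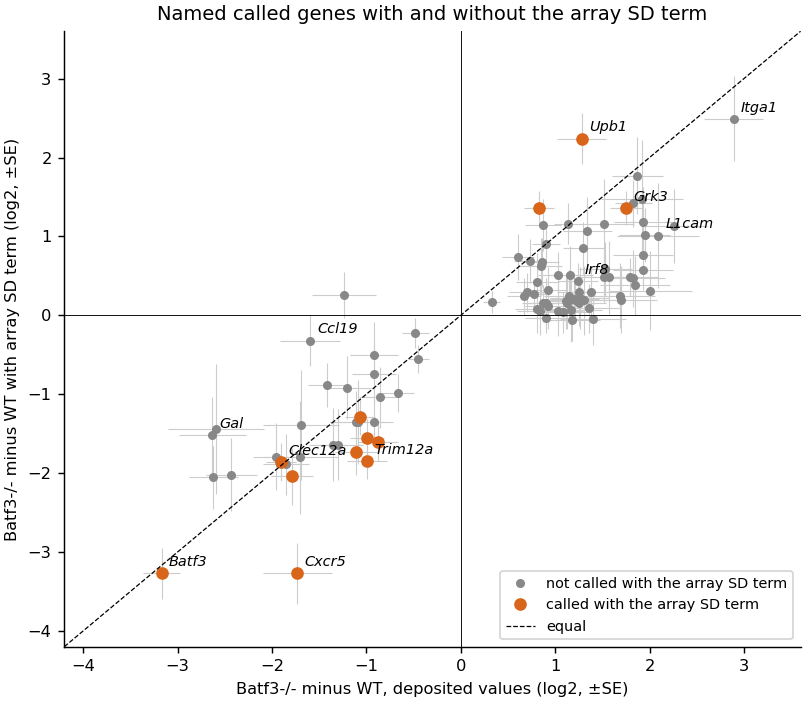
Batf3-/- minus WT difference (log2) of the called named genes as deposited (horizontal) and with the array SD as a term (vertical), with the standard error of each fit as bars; the dashed line marks equal values and orange points were called with the term. Batf3 sits on the line at -3.17 and -3.27, while most rises drop towards 0 (Irf8 from 1.24 to 0.43, L1cam from 2.09 to 1.01).

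Over all called genes the median difference shrank from 0.94 to 0.35 for the higher genes with the array SD term, and from -0.87 to -0.54 for the lower genes. The sign was kept in 759 of 851 higher genes (89.2%) and 270 of 272 lower genes (99.3%).

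Maturation genes leaned upward. Of 41 tested genes of DC maturation and migration, 10 were called higher and 1, Ccl19, lower, with a median of 0.50 (0.09 after scaling, 0.11 with the array SD term); 5 of the 10 remained called after the 3 normalizations. Pdcd1lg2, the PD-1 ligand PD-L2, measured 4.84 and 5.90 in WT and 6.70, 7.28 and 6.69 in Batf3-/- cells (difference 1.52, SE 0.32, adjusted p = 0.018). Icosl, the ligand of ICOS, measured 7.31 and 7.33 against 8.89, 8.49 and 8.03 (difference 1.15, adjusted p = 0.0237), and its difference was 0.25 with the array SD term. Adcy6, an adenylyl cyclase, and Cd83, a surface marker of mature dendritic cells, had differences of 1.31 and 0.67 (adjusted p = 0.034 and 0.0371). Cd83 was not called after quantile normalization (adjusted p = 0.079), nor Adcy6 after cyclic loess (adjusted p = 0.0578). Among 25 tested costimulatory and coinhibitory ligands, 3 were called higher and 1 lower, the inhibitory adhesion molecule Ceacam1 (difference -0.86, adjusted p = 0.0329).

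All 22 tested NF-κB subunits and feedback genes had a positive difference, as did 7106 of all 11931 genes tested. The list median was 0.76 against 0.10 over all genes. In the ninth of the 10 groups by level, with genes at 7.54 to 8.47, the median was 0.32. With the array SD term the median of the NF-κB list was -0.23. Those called were Map3k14, the kinase NIK of the non-canonical pathway, the adaptor Traf1, the subunit Relb and the coactivator Bcl3. Relb measured 8.74 and 9.20 in WT and 10.45, 10.35 and 9.49 in Batf3-/- cells (difference 1.13, adjusted p = 0.0293; 0.16 with the array SD term), and Map3k14 6.52 and 7.29 against 8.29, 8.40 and 7.66 (difference 1.21, adjusted p = 0.0182). Batf3-/- replicate 3 was again nearest to WT. Traf1 and Bcl3 had differences of 1.20 and 0.81 (adjusted p = 0.0203 and 0.0498), and Bcl3 was not called after quantile normalization (adjusted p = 0.056).

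Of 35 tested cytokines and cytokine receptors, 5 were called higher and 1, Il23r, lower. Il10ra, a subunit of the IL-10 receptor, measured 5.38 and 6.62 in WT and 8.15, 7.97 and 6.93 in Batf3-/- cells (difference 1.69, SE 0.37, adjusted p = 0.021). Tnf measured 6.59 and 7.40 against 9.09, 8.36 and 7.73 (difference 1.40, adjusted p = 0.0301), and Csf2rb, the shared β chain of the GM-CSF, IL-3 and IL-5 receptors, had a difference of 1.36 (adjusted p = 0.0241). With the array SD term these were 0.25, -0.05 and 0.09, so the direction of Tnf was not kept.

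Antigen presentation genes split by locus. Of 16 tested MHC class II genes, 4 were called higher and 2 lower. H2-Eb2 measured 6.99 and 7.68 in WT and 9.48, 9.51 and 8.47 in Batf3-/- cells (difference 1.82, adjusted p = 0.0119), and H2-Eb1, a β chain of I-E, 11.26 and 11.53 against 12.39, 12.23 and 11.91 (difference 0.78, adjusted p = 0.00833). With the array SD term the 2 differences were 0.47 and 0.27. H2-Oa, a subunit of the H2-O inhibitor of peptide loading, measured 9.29 and 9.27 against 8.63, 8.68 and 8.52 (difference -0.67, adjusted p = 0.0297). This gene is also expressed by B cells, whose part in it was not tested. H2-Ab1, part of the sort gate, differed by -0.09 (adjusted p = 0.534). Ifi30, a lysosomal thiol reductase, had a difference of 0.73 (adjusted p = 0.0219), which like that of H2-Eb1 was not called after scaling (adjusted p = 0.682 and 0.676). Of 17 tested MHC class I genes, H2-Q4, Tapbpl and Tap1 were called higher, at 1.11, 0.92 and 0.87 (adjusted p = 0.029, 0.0362 and 0.0237). With the array SD term these were 0.18, 0.12 and 0.15. Tapbpl was not called after any of the 3 normalizations (adjusted p = 0.0528 to 0.0783), nor Tap1 after scaling (adjusted p = 0.2). After all 3 normalizations 1 class I rise, 1 class II rise and 2 class II falls stayed called. H2-Q4 has near-identical copies that can share its signal, and the class I and class II medians, 0.44 and 0.32 (from 0.315), turned to -0.02 and -0.14 after scaling.

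Within the cross-presentation and phagosome list 4 of 21 tested members were called higher and 3 lower. Rab43, a GTPase of cross-presentation in DC1, measured 7.04 and 7.13 in WT and 8.65, 8.64 and 7.72 in Batf3-/- cells (difference 1.25, adjusted p = 0.0231), and Ncf4, a subunit of the phagocyte oxidase, 6.02 and 6.14 against 7.04, 7.29 and 7.00 (difference 1.03, adjusted p = 0.0168). With the array SD term the rises of Rab43 and Ncf4 were 0.15 and 0.51. Rac2, a GTPase that directs the oxidase to phagosomes, measured 8.70 and 9.29 against 7.48, 8.30 and 7.86 (difference -1.11, adjusted p = 0.0179). Syk, the kinase downstream of CLEC9A, had a difference of 1.18 (adjusted p = 0.032) that was -0.06 with the array SD term.

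Of 19 tested Toll-like receptors and adaptors, 5 were called higher and 1, Tlr3, lower. Tlr13, a sensor of bacterial ribosomal RNA, measured 5.11 and 6.25 in WT and 7.32, 7.81 and 6.63 in Batf3-/- cells (difference 1.57, adjusted p = 0.0192). Myd88, the adaptor used by most of these receptors but not by TLR3, and Unc93b1, the chaperone of the endosomal ones, had differences of 1.26 and 1.08 (adjusted p = 0.029 and 0.0291). These rises were 0.22 and 0.04 with the array SD term. Tlr9, a sensor of unmethylated DNA, had a difference of 0.90 (adjusted p = 0.0419), not called after quantile normalization (adjusted p = 0.0654). The list median of 0.68 was -0.07 with the array SD term.

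Interferon response genes gave 1 called member in each direction among 22 tested, at a median of 0.10: Irf9 at 0.70 (adjusted p = 0.0382) and Ifit3 at -1.24 (adjusted p = 0.0412). Irf9 was not called after any of the 3 normalizations (adjusted p = 0.0633 to 0.0972), and Ifit3 turned to 0.26 with the array SD term. Tissue dissociation genes had 3 of 23 tested members higher, Atf3, Dusp1 and Ier2 (differences 1.34, 0.90 and 0.85), at a median of 0.55 that was -0.03 with the array SD term. Cytosolic ribosomal proteins had Rpl12, Rpl24 and Rps25 lower (differences -1.35, -0.48 and -0.45) and Rps2 higher (0.33; -0.44 after scaling) among 35 tested, and such genes share probes with processed copies. Uptake receptors had only Clec9a called among 22 tested.

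No member was called by limma among 34 cell cycle genes (5 had an unadjusted p under 0.05; smallest p for Uhrf1, 0.99, adjusted p = 0.0526) and 19 cholesterol biosynthesis genes (2; Stard4, -0.52, adjusted p = 0.0773). Among the markers of other cells, the macrophage and monocyte list had C1qa and C1qb, of the complement C1q complex, called higher among 12 tested; C1qa measured 4.75 and 4.74 in WT and 6.11, 5.60 and 5.29 in Batf3-/- cells (difference 0.92, adjusted p = 0.0192) and C1qb had a difference of 0.61 (adjusted p = 0.0411). Their summed log2 level was 95.6 to 96.6 in WT and 98.4 to 98.8 in Batf3-/- cells, while Adgre1, Mertk, Fcgr1 and Cd163 were too dim to test. NK cell markers (9 tested; Klrk1, 0.87, adjusted p = 0.0624), the neutrophil marker S100a9 (-0.11, adjusted p = 0.841) and erythroid markers (2 tested; Slc4a1, -0.27, adjusted p = 0.3) had none called, with unadjusted p under 0.05 for 3 NK cell markers and 0 of the others. Their part in the results was not tested. The gate genes Itgax (0.82), Cd24a (-0.18), Sirpa (-0.16) and Ptprc (0.46), the last of these being the pan-leukocyte gene that B220 derives from, did not pass the test (adjusted p = 0.158, 0.489, 0.871 and 0.151).

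Whether the Batf3 effect of migratory DC1 is that of resident DC1 was tested by the difference between the 2 effects. It was called for 148 of 11931 genes (1.24%), 86 higher (0.721%) and 62 lower (0.52%); 30 were called with the array SD term. Without Batf3-/- migratory replicate 3 the count was 1713, without WT migratory replicate 2 it was 329, and without each other lymph node array it lay between 17 and 69. The split of 86 to 62 became 70 to 62 after quantile normalization, 47 to 52 after scaling and 41 to 58 after cyclic loess.

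The named genes on which the cell states differed were mostly of 3 kinds. In the first, the fall appeared in migratory cells. Bmp2 had a difference of -2.43 in migratory and 0.13 in resident DC1 (difference of effects -2.56, SE 0.36, adjusted p = 0.00886), and lay at 3.77 to 4.44 on the resident arrays, below the filter level. Il23r (effect -0.07 in resident cells; adjusted p of the difference = 0.0212) and Gal (-0.17; 0.0346) were likewise below the filter level on every resident array, so a fall there could not be seen. Cxcl9 was bright in resident cells, 10.93 to 11.42, and differed by 0.11 there against -1.42 in migratory cells (difference -1.53, adjusted p = 0.0247). Clec12a and Ifi205 had resident differences of -0.88 and -0.94, smaller than the migratory ones (adjusted p = 0.0483 and 0.0435). Gpr183 and Trim12a had resident differences of 0.60 and 0.46, opposite in sign to the migratory ones (adjusted p = 0.0435 and 0.0392).

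In the second kind, the resident difference was the larger. Itga8, an RGD-binding integrin subunit, measured 6.51, 5.75 and 6.56 on the resident WT arrays and 3.47, 3.20 and 3.30 on the resident Batf3-/- arrays (resident difference -2.95), but lay at 3.32 to 3.96 on the migratory arrays. Elovl6, a fatty acid elongase, and Fzd1, a Wnt receptor, showed the same order, with resident differences of -2.32 and -1.99 and migratory ones of 0.10 and 0.27 (adjusted p = 0.00354 and 0.00657 for the difference). All 3 lay near or below the filter level of 4.82 on the migratory arrays, Elovl6 at 4.38 to 5.09 and Fzd1 at 4.41 to 5.05, so a fall there could hardly be seen. Gcsam had a difference of -1.05 in migratory cells, 1.99 above the resident one (adjusted p = 0.00657). Klrb1b, a C-type lectin of NK cells, measured 5.14, 4.90 and 4.62 in resident WT and 7.59, 7.36 and 7.14 in resident Batf3-/- cells (difference 2.47), and its migratory difference was -0.39 (adjusted p = 0.000737 for the difference of effects). Tlr1, Pecam1, Ms4a4c and Gpr82 had resident differences of 2.46, 2.11, 1.62 and 2.11 and migratory ones of -0.45, -0.46, -1.08 and -0.37 that did not pass the test. Ms4a4c has close relatives in its gene cluster that can share its signal.

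In the third kind, the difference was larger in migratory cells. Tubb2b differed by 2.26 in migratory and -0.64 in resident DC1 (difference 2.90, SE 0.47, adjusted p = 0.0188). Irf8 differed by 1.24 and -0.14 (difference 1.38, SE 0.28, adjusted p = 0.0402; 0.49 with the array SD term). Itga6 (1.14 and -0.33, adjusted p = 0.00657), Galnt12 (1.83 and 0.24, adjusted p = 0.0215) and Grk3 (1.75 and 0.50, adjusted p = 0.0315) had the same order. Outside these kinds, Arpin, an inhibitor of the Arp2/3 complex, and Pi4k2a, a phosphatidylinositol kinase, had differences of opposite sign as deposited, with migratory differences of 1.03 (adjusted p = 0.037) and 1.00 (adjusted p = 0.0724) and resident ones of -1.14 and -1.33. With the array SD term the migratory differences were 0.05 and -0.39. The migratory rise of Arpin was not called after any of the 3 normalizations (adjusted p = 0.0576 to 0.0645). Batf3 and Xcr1 did not pass the test of the difference of effects, with resident differences of -2.64 and -1.38 beside migratory ones of -3.17 and -1.85 (adjusted p = 0.291 and 0.435).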

How the data were processed

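The lymph node values were deposited by the authors as log2 intensities, 1.35 to 13.96, made with RMA per the submitters' processing notes (version not given in the sources used here); RMA corrects background, normalizes and summarises probes, and the table holds no measure of background, so dim signal cannot be set apart from absence. The number of arrays limits the precision. Of 35556 probe sets 21789 had 1 symbol in the platform annotation, 1621 several and 12146 none; 21698 symbols were updated by gene identifier through RefSeq. Each gene took its brightest probe set. All 11 lymph node arrays entered 1 limma 3.58.1 fit (R 4.3.3, with lmFit, contrasts.fit and eBayes with trend). The fit was also run on simulated data with the same spread on every array. That run cannot test the fit under the differing spread seen here. The spleen arrays were not used.

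Members, the 35 gene lists and rules were chosen with earlier results of these data known. Named were Batf3, Irf8, Xcr1 and gate genes, the 12 furthest called genes each way, genes also called under every spread setting, up to 4 called members of each list (the smallest p where none was called), and 6 genes each way for the difference between migratory and resident effects, leaving out from the furthest the predicted genes and the microRNA, small nucleolar RNA, odorant and antigen receptor segment symbols. Promoters shown were those of genes called under every spread setting that hold TGANTCA, with Ifi205 added. Alternatives were no or stricter filter, 4 normalizations, the array SD term, the title code as a replicate block, array weights, no trend, mean of probe sets, migratory arrays alone and each array left out. Replicate numbers come from a code in the titles whose meaning the labels do not state.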

Additional observations from a re-analysis of the deposited data

Results flagged for a closer look

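The Batf3-/- effect differed between migratory and resident DC1, by the limma test of the difference itself, for these genes among those named (migratory minus resident effect, log2). Lower in migratory cells were Tlr1 (-2.91), Klrb1b (-2.87), Ms4a4c (-2.70), Pecam1 (-2.57), Bmp2 (-2.56), Gpr82 (-2.48), Gal (-2.47), Il23r (-1.89), Ifi205 (-1.69), Cxcl9 (-1.53), Gpr183 (-1.52), Trim12a (-1.46) and Clec12a (-1.02). Higher were Grk3 (1.26), Irf8 (1.38), Itga6 (1.47), Galnt12 (1.59), Gcsam (1.99), Arpin (2.17), Fzd1 (2.25), Pi4k2a (2.33), Elovl6 (2.41), Itga8 (2.51) and Tubb2b (2.90). With the array SD term Klrb1b, Itga8 and Trim12a were still called, and the others kept their direction without passing the test.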

How the results depend on the processing

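The count of 1123 called genes was 1059 with the stricter filter, 1074 after median centring, 1154 without the trend and 1107 with the mean of probe sets. It moved to 2104 without a filter, 2294 with array weights, 37 with the array SD term and 7 with the migratory arrays alone, which leave few degrees of freedom. Batf3, Clec12a, Ifi205, Bmp2, Itga1 and Apol7c were among these 7. Leaving out 1 array gave 109 to 3570, with 692 and 707 without resident WT replicates 2 and 3. With the title code as a replicate block it was 2464, and with the block and the array SD term limma called 0 (843 had an unadjusted p under 0.05). Same-numbered migratory arrays had correlations of deviations of -0.157 and 0.245, while same-numbered resident and migratory arrays had 0.416, 0.21 and 0.479 in Batf3-/- and 0.147 and 0.097 in WT. The 2 WT migratory arrays deviate from their mean by equal and opposite amounts. Each Batf3-/- array therefore correlates with 1 of them as it does with the other, with the sign turned, and these values can say little about pairing. The numbers are thus not shown to pair the migratory arrays across genotypes, and whether they pair resident with migratory arrays, on which the difference between cell states depends, is not settled. The 148 genes whose effect differed between cell states became 297 without a filter, 80 with the stricter filter, 93 after centring, 30 with the array SD term, 1110 with array weights, 543 with the replicate block, 0 with block and SD term (961 with an unadjusted p under 0.05), and 17 to 1713 without 1 array.

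Of the 99 called named genes, 99 kept sign and call with the replicate block, 84 after scaling, 86 after cyclic loess, 89 after quantile normalization and 12 with the array SD term. The direction turned with the array SD term for Dusp1 (-0.031), Syk (-0.06), Tnf (-0.046) and Ifit3 (0.26), and, among genes not called, Cd24a (0.46), Elovl6 (-0.53), Itgax (-0.58), Pi4k2a (-0.39), Ptprc (-0.25), S100a9 (0.76), Slc4a1 (0.26) and Uhrf1 (-0.055). Scaling turned Rps2 (-0.44). With the replicate block and the array SD term it turned for Adcy6 (-0.13), Atf3 (-0.17), Bcl3 (-0.51), Cd83 (-0.087), Csf2rb (-0.23), Dusp1 (-0.29), Ece1 (-0.39), Fgd2 (-0.41), H2-Eb2 (-0.14), H2-Q4 (-0.435), Ifit3 (0.48), Il10ra (-0.85), Irf8 (-0.19; also -0.19 for its difference between cell states), Myo1g (-0.069), Rasa4 (-0.074), Relb (-0.28), Rpl24 (0.10), Sned1 (-0.17), Syk (-0.55), Tap1 (-0.48), Tapbpl (-0.38), Tlr9 (-0.15), Tnf (-0.26), Traf1 (-0.43) and Unc93b1 (-0.10), and for the uncalled Cd24a (0.19), Elovl6 (-0.22), Itgax (-1.37), Ptprc (-0.20), S100a9 (1.84), Sirpa (0.14), Slc4a1 (0.44) and Uhrf1 (-0.67). The cause was not tested. Leaving out 1 migratory array turned only uncalled genes: Elovl6 ranged from -0.03 to 0.325, S100a9 from -0.69 to 0.47, Sirpa from -0.356 to 0.052 and Tlr1 from -1.175 to 0.27.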

Other observations

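The median migratory difference rose with the genomic span of a gene. Over 5 equal groups of 11923 tested genes with a span in RefSeq, ordered from a median of 3.3 to 105.9 kb, it was -0.05, 0.07, 0.11, 0.17 and 0.19 on the log2 scale. Calls higher in Batf3-/- numbered 94, 141, 192, 205 and 219, and calls lower 86, 55, 61, 36 and 33. In resident DC1 the medians lay between -0.02 and 0.01. After quantile normalization the medians kept their order, from -0.09 in the shortest to 0.12 in the longest group. With the array SD term the order was turned, from 0.10 to -0.05. The separate parts of span, level and array spread were not tested.

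On Batf3-/- replicate 3 the T cell gene Cd3g measured 8.45, against 6.23 and 7.59 on the other Batf3-/- arrays. In WT it measured 7.58 and 8.72. Other T cell markers were mixed on that array. Cd3d was the highest of its group there (7.19, against 6.05 and 6.64), while Cd3e was the lowest (6.23, against 6.26 and 6.61). Of 16 tested T cell markers 7 had a positive genotype difference, the median was -0.12 and none was called. The part of T cell RNA in the values of that array was not tested.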
